A study of Mus musculus with 6 samples.

Results

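The loci described here are 262 short noncoding loci of the mouse genome that carry the type Tbx5-dependent ncRNA in the authors' table and span less than 1000 bp. They were chosen by that type and that length alone, with no expression value involved. They make up 30.9% of the 849 loci of the type and stand among 28660 loci in all, spike-ins not counted. Their spans run from 52 to 993 bp with a median of 213.5 bp, and 116 of them are under 200 bp.

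The RNA came from nuclei of HL-1 cells, an immortalised mouse atrial cardiomyocyte line that keeps contracting in culture, grown in Claycomb medium with fetal bovine serum, L-glutamine and norepinephrine. Nuclei were separated into 2 fractions, a chromatin pellet extract (3 libraries) and a soluble nuclear extract (3 libraries), and ERCC spike-in RNAs were added to each fraction. Both groups are the same untreated cells of 1 line, and Tbx5 was altered in neither, so the word "dependent" is the authors' label and was not measured in these libraries. The table holds 1 value per fraction, in FPKM (fragments normalised to locus length and library size), so no spread between the biological replicates can be given and no test between the fractions was run.

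Tbx5 is a T-box transcription factor needed to form the cardiac septa and the conduction system, and in the adult atrium it maintains genes of rhythm and calcium handling. Enhancers bound by such factors are often transcribed into short, unstable noncoding RNAs. RNA that stays with the chromatin pellet after extraction of the nuclei is largely nascent RNA still held by RNA polymerase, whereas finished RNAs collect in the soluble fraction.

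The letters of 2 of the loci can be shown, as far as a RefSeq promoter window (build GRCm38.p6, 250 bases before to 50 after a start site) reaches into them. They are given because no other short locus was reached by such a window. The first is among the best covered of all the short loci and the other is sparse. The first is a stretch of 57 bases of XLOC_028516 (chr19:57404215-57404271, plus strand), the second a stretch of 160 bases of XLOC_006013 (chr10:77432387-77432546, minus strand). The third sequence is the 250 bases before the start of Nppa (chr4:148000472-148000721, plus strand), the atrial natriuretic peptide gene, since XLOC_041231 lies 6635 bp from it on its upstream side. Capitals mark matches to the motifs searched on both strands. The T-box motif was AGGTGTNA and that of Nkx2-5 was TNAAGTG. Factors of the GATA family were searched as AGATAA, and the polyadenylation signal as AATAAA.
XLOC_028516: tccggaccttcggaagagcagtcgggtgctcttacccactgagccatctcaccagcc
XLOC_006013: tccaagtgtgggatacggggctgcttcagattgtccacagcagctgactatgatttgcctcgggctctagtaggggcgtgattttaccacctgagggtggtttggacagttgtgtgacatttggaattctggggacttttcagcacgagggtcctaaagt
Nppa upstream bases: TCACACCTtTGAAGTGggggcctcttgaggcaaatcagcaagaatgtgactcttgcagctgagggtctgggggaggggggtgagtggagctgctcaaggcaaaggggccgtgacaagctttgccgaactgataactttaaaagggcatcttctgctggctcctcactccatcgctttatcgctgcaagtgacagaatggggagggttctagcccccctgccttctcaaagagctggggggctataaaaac

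Neither locus stretch held a match to any of the 4 motifs. The stretch of XLOC_028516 shared a run of 16 bases with 40 other windows among 32851 (0.122%), and that of XLOC_006013 with 5 (0.0152%). Copies in the rest of the genome were not searched, so these shares do not show how unique either stretch is. The Nppa bases held 1 T-box match, 250 to 243 bases before the start, and 1 Nkx2-5 match, 241 to 235 bases before it, with no overlap between them. Over all promoter windows of 300 bases, 3.03% held the T-box letters and 11.5% the Nkx2-5 letters. Of the 125 windows of the 97 coding genes nearest to short loci above the level minimum given further on, 4% and 8% held them. A match describes letters only.

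The FPKM values of such short loci rest on very unequal numbers of sequenced fragments. At a given length the low values of the table could be fitted as sums of whole multiples of fixed steps. The number of steps was set in advance to 3 per fraction, the number of libraries per fraction. Of 1051 low values at 223 lengths from 66 to 995 bp, 1048 (99.7%) were whole numbers of fragments within a relative tolerance of 2e-05. The step at each length was chosen to match most of these same values. Lengths at which too few matched were left out, so the share is high in part by construction. At 107 bp the steps were 0.882, 1.31 and 1.57 FPKM in the soluble fraction and 0.636, 0.645 and 0.684 FPKM in the pellet. The smallest soluble step fell steeply with length, from 1.19 FPKM at 100 bp to 0.0761 at 200 bp, 0.00718 at 500 bp and 0.0027 at 990 bp. A single fragment on a locus of 100 bp thus weighs as much in FPKM as a great many fragments on one of 990 bp. The method held the proportions of the 6 steps fixed over all these lengths. On that assumption, which was not tested, length moves the level of a locus but not its ratio between the fractions.

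**Figure D1:**
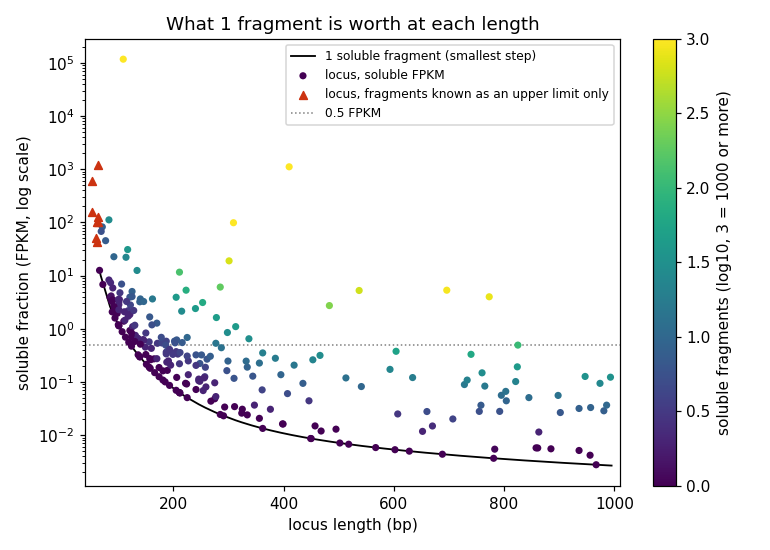
Soluble FPKM (log scale) of the short loci against their length in bp, coloured by the number of soluble fragments, with the FPKM worth of 1 fragment as a line and the 8 loci shorter than the shortest length with a known step as triangles. Many loci sit on the line, at 1 fragment, and all 29 loci under 100 bp lie above the dotted 0.5 FPKM line whatever their number of fragments.

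Fragment numbers could be given for 251 of the 262 loci. Another 8 loci are shorter than 66 bp and have an upper limit only, and 3 share their exact coordinates with an annotated gene of the table and were left without a number. Of the 251 loci, 84 rested on 1 soluble fragment over the 3 soluble libraries together and 143 on at most 3, with estimates rounded. The soluble number was read as whole fragments for 152 loci and is an estimate for the others. No locus of the table was listed at 0 in either fraction. XLOC_041511 and XLOC_052764 together held 95.3% of the soluble and 75.7% of the pellet fragments found on the short loci.

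A mean of at least 0.5 FPKM over both fractions was asked for before a locus was counted. It was reached by 148 short loci, namely 103 of those under 200 bp (88.8%) and 45 of those from 200 bp on (30.8%), so in fragments it is a looser filter for the shorter ones. Among the 137 of these with fragment numbers, the median was 3 soluble and 24 pellet fragments. At most 3 soluble fragments stood behind 72 of them, at least 100 behind 10. Across these 137 loci, which share the same 6 libraries, length had a Spearman rank correlation of -0.54 with mean FPKM and 0.62 with fragments. Across all 148 it had one of -0.012 with the fold between the fractions. Of the 20 loci with the highest mean FPKM, 9 were also among the 20 with the most fragments.

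Most short loci were higher in the chromatin pellet. On the spike-in scale, which multiplies the pellet FPKM by 3.373 (1.75 on the log2 scale), 133 of the 148 short loci passed 2-fold towards the pellet and 3 passed it towards the soluble fraction, beside 31.9% higher and 10.5% lower among all 13917 loci that reached the minimum. Their median log2 fold was 3.87 (quartiles 2.60 and 4.53), beside 0.41 over all loci. A locus could reach the minimum through its pellet value alone, and 39 of the 148 had under 0.5 FPKM in the soluble fraction. With no minimum, 235 of the 262 loci were at least 2-fold higher, 3 lower, and the median was 3.58, beside 49.8% higher and 8.88% lower over all 28660 loci. Without the spike-in factor, 106 of the 148 were higher and 14 lower, beside 9.66% and 61.2% of all loci, and the median was 2.12 beside -1.34. The fold of the spike-ins themselves scattered with an SD of 0.12 (log2, n = 47) at a mean of at least 0.5 FPKM. The SD was 0.372 (n = 16) at 0.05 to 0.5 FPKM and 0.846 (n = 19) under 0.05 FPKM. Spike-ins were grouped by FPKM and not by fragments, so these SDs do not give the scatter of the short loci's folds.

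Counting error alone left many single folds wide. The 95% interval used here is the Clopper-Pearson interval of the pellet's share of a locus's fragments, put on the fold scale, and covers counting error only, since fragments copied by PCR are not independent. Of the 124 loci that were at least 2-fold higher and had fragment numbers, 100 had an interval wholly at or above 2-fold and 7 had one that reached equality or below. Among the 34 loci with at least 10 soluble fragments, 27 were higher and 2 lower, and the median log2 fold was 3.51. Among the 10 with at least 100 soluble fragments, 7 were higher and 1 lower, and the median was 1.63. Asking for many soluble fragments favours loci with more soluble RNA, so these medians are not comparable with that of all 148.

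**Figure D2:**
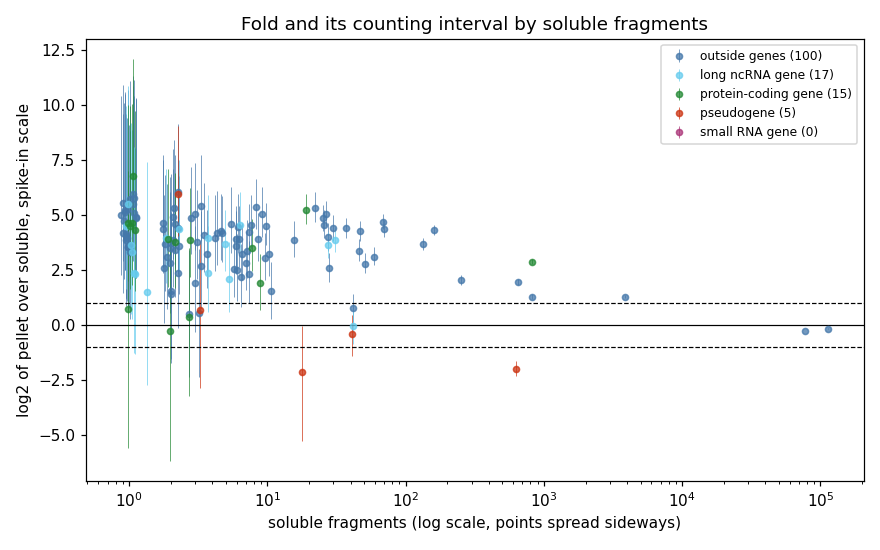
Log2 fold of pellet over soluble on the spike-in scale against soluble fragments (log scale), for the 137 loci with fragment numbers, with the 95% counting interval of each. Intervals narrow from left to right. The loci at 1 soluble fragment reach up to 6.77, and the 2 at the far right lie between 0 and -1.

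The largest folds belonged to loci with the fewest soluble fragments. The 8 largest at a mean level of 1 FPKM or more, 5.50 to 6.77 on the log2 scale, rested on 1 or 2 soluble fragments each. XLOC_061514 (chrX:150460178-150460243), which overlaps Tmem29 and Apex2, a DNA repair nuclease gene, had 12.5 FPKM in the soluble fraction and 407 FPKM in the pellet. These values stand for 1 soluble and about 44 pellet fragments, with a counting interval of 4.22 to 12.11 around the log2 fold of 6.77. XLOC_040248, 24385 bp from Nfib, which codes for a nuclear factor I transcription factor, had 2 soluble and about 54 pellet fragments and a fold of 6.07 (4.15 to 9.16). XLOC_050197 (pseudogene Gm5738) had 2 and about 50 fragments.

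The other 5 were as sparse. XLOC_056175, 55847 bp from Bbs9, a gene of the ciliary BBSome, had a fold of 5.96 (3.35 to 11.32). XLOC_024344, 6181 bp from Ppil1, a peptidyl-prolyl isomerase of the spliceosome, had one of 5.77 (3.14 to 11.14). XLOC_028544 (near Rab11fip2), XLOC_009545 (near Fam114a2) and XLOC_039190 (near Ythdf2, a reader of N6-methyladenosine) had folds of 5.73, 5.56 and 5.50, with the lower ends of their intervals at 3.09, 2.91 and 2.90. The 8 were chosen for the size of their folds, and the last 5 had 1 soluble fragment each, so these values describe the top of the range only. Their intervals overlap each other, and their order is not resolved at this depth.

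High FPKM was likewise no sign of many fragments in the shortest loci. XLOC_000837 (63 bp, chr1:98705432-98705494) had 1195 FPKM in the soluble fraction and 6716 FPKM in the pellet, which is at most 95.3 soluble and 742 pellet fragments. XLOC_031092 (52 bp, chr2:164922568-164922619), 2614 bp from Zfp335os, had 596 and 2486 FPKM, at most 47.5 and 275 fragments. Their log2 folds were 4.25 and 3.81. Both limits take 1 fragment to be worth no less than at 66 bp.

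By contrast, 2 loci were abundant by fragments as well as by FPKM, and these were about equal in both fractions. XLOC_041511 (109 bp, chr5:17776727-17776835) lies 4855 bp downstream of Cd36, which codes for a fatty acid transporter. It had 116696 FPKM in the soluble fraction and 30919 FPKM in the pellet, from about 106810 and 51191 fragments, a log2 fold of -0.16. XLOC_052764 (410 bp, chr8:3754327-3754736), 5343 bp from Cd209a, a C-type lectin gene, had 1108 and 273 FPKM, from about 79959 and 35698 fragments, and a fold of -0.26. Their soluble FPKM stood far apart and their soluble fragments much closer together. Cd36 itself had 1.94 and 0.304 FPKM.

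Below these stood 8 further loci above the level minimum with at least 100 soluble fragments. XLOC_021365, 3664 bp from Cfap298, a gene of ciliary motility, had 98.5 FPKM in the soluble fraction and 71.4 FPKM in the pellet (about 3724 and 4882 fragments), a log2 fold of 1.29 with a counting interval of 1.23 to 1.35. XLOC_028516, whose letters are printed above, had 5.31 and 3.87 FPKM (about 916 and 1208 fragments) and a fold of 1.30 (1.17 to 1.42). XLOC_027093, 4105 bp from Ccs, the copper chaperone of superoxide dismutase, had a fold of 1.96 (1.83 to 2.10). All 3 counting intervals lay above 2-fold towards the pellet. They also lay below the median of the short loci, but picking loci with many soluble fragments favours lower folds. That comparison therefore does not set these loci apart.

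XLOC_043055 (773 bp), inside Fry, had 3.99 and 8.79 FPKM (about 797 and 3170 fragments) and a log2 fold of 2.89 (2.78 to 3.01). XLOC_000808 (285 bp), from the group on chromosome 1 described further on, had 6.08 and 36.3 FPKM (about 185 and 1995 fragments) and a fold of 4.33 (4.11 to 4.56). The other 3 were XLOC_000838 and XLOC_022948, with folds of 3.68 and 2.05, and XLOC_008866, which was lower in the pellet, at -1.98, and is described with the pseudogenes. Among these 10 loci the folds thus ran from -1.98 to 4.33 on the log2 scale, a range far wider than their counting intervals.

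By RefSeq's annotation, 196 of the 262 loci lay outside all genes, 33 overlapped a long noncoding RNA gene, 22 a protein-coding gene, 10 a pseudogene and 1 a small RNA gene. Above the minimum, the 108 loci outside genes had a median log2 fold of 3.90, with 102 at least 2-fold higher and 0 lower. The 17 in long noncoding RNA genes had a median of 3.64 (16 higher) and the 15 in protein-coding genes one of 3.89 (12 higher). XLOC_038502, inside Adamtsl1, a gene of the ADAMTS-like matrix proteins, had 20.1 soluble and about 408 pellet fragments and a fold of 5.24. The 3 in coding genes that were not 2-fold apart, in Hdac4, Trnp1 and Sirt4, rested on at most 3 fragments in either fraction.

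All 3 loci that were lower in the pellet overlapped pseudogenes. Of the 7 pseudogene loci above the minimum, 3 were at least 2-fold lower in the pellet, 2 higher and 2 in between, with a median log2 fold of -0.42. The 3 pseudogene loci under the minimum had folds of 4.94, 2.30 and 1.30, and with them 5 of all 10 were higher and 3 lower and the median turned positive. Above the minimum and without the pseudogene loci 131 of 141 were higher and 0 lower. The split was noticed in these data and carries no test. XLOC_008866 (537 bp, pseudogene Gm12040) had 5.24 FPKM in the soluble fraction and 0.393 FPKM in the pellet, about 612 and 83 fragments, with a fold of -1.98 (-2.33 to -1.65).

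XLOC_015381 (511 bp, Gm2830) had 197 and 16.9 FPKM and a fold of -1.79. XLOC_021104 (162 bp, Gm18694) had 3.64 and 0.248 FPKM, but its pellet value stands for 2 fragments, and its fold of -2.12 has an interval of -5.29 to -0.03. The other pseudogene loci above the minimum were XLOC_050920 (-0.42), XLOC_048914 (0.70), XLOC_000884 (2.65) and XLOC_050197 (5.97). As a background, 218 loci of the table's own pseudogene types under 1000 bp reached the minimum, of which 26.1% were higher and 47.7% lower, around a median of -0.90. The sources used here do not say how fragments that fit a pseudogene and its parent gene were counted, which leaves these values uncertain.

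**Figure D3:**
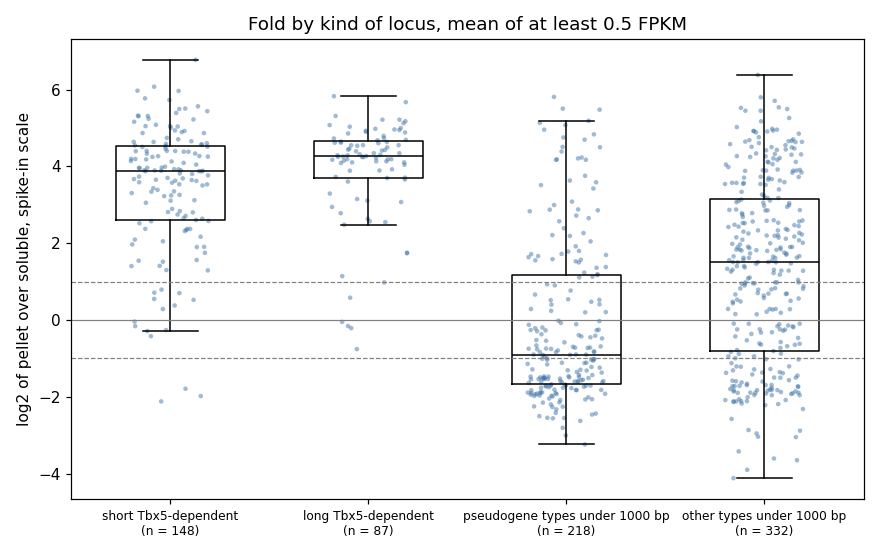
Log2 fold of pellet over soluble on the spike-in scale for loci above the level minimum (a mean of 0.5 FPKM), by kind, with 1 point per locus and boxes from the lower to the upper quartile around the median. The 148 short and 87 long Tbx5-dependent loci centre at 3.87 and 4.27, the 218 pseudogene loci at -0.90, and the 332 other loci under 1000 bp spread on both sides of 0 around 1.50.

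The table lists 3 short loci that share their exact coordinates with an annotated gene that has a line of its own in the table. XLOC_047046 lies on Rny1, the gene of a Y RNA that binds the Ro60 protein. It had 2.21 FPKM in the soluble fraction and 4.07 FPKM in the pellet, a log2 fold of 2.64, while the line of Rny1 had 21710 and 5433 FPKM and a fold of -0.24. XLOC_015381 and its twin line Gm2830 (4.33 and 0.391 FPKM) had folds of -1.79 and -1.71. XLOC_000884 and its twin Gm26509 (0.191 and 1.02 FPKM) had folds of 2.65 and 4.17. The table has no strand, so reads of a locus and of its twin cannot be told apart here. XLOC_026719, inside Gm4107, a gene of the miscellaneous RNA type, had 1.86 and 8.51 FPKM, 2 soluble and about 22 pellet fragments, and a fold of 3.95.

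Other types under 1000 bp differed widely among themselves. The 332 such loci above the minimum that were no pseudogenes had a median log2 fold of 1.50, with 55.4% higher and 23.2% lower, beside 0.41, 31.9% and 10.5% over all loci. With pseudogenes included there were 550, of which 43.8% were higher and 32.9% lower (median 0.47). Most of the noncoding types were often high in the pellet. The 46 snoRNA genes, which are processed from introns and guide modification of other RNAs, had a median of 3.63 with 91.3% higher, close to the short loci's 89.9%. The 22 miRNA genes had 2.41 with 81.8% higher, the 67 snRNA genes 2.08 with 79.1%, and the 36 lincRNA genes 1.39 with 55.6%. The 15 miscellaneous RNA genes had -0.14 with 6 higher, and the 85 protein-coding loci -1.50 with 21.2%.

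The 87 longer loci of the same type (1000 bp and over) that reached the minimum had a median log2 fold of 4.27, with 81 higher and 0 lower, so the short loci's median was lower by 0.397 on the log2 scale. That difference had the same sign under every alternative tried, between -0.127 and -0.761. Leaving out the spike-in factor shifts the short and the long median alike, so it had to return -0.397 and cannot test the sign. The value of -0.761 came from a minimum of soluble fragments set on the short loci alone. Such a minimum favours lower folds among them, so that value cannot test the sign either. Of these long loci, 58 had under 0.5 FPKM in the soluble fraction and reached the minimum through the pellet, as did 39 of the 148 short ones, so the filter acts unequally on both. At any level the medians were 4.15 over all 587 long loci and 3.58 over all 262 short ones. The loci next to the length limit had levels too low to tell more. XLOC_047253 (986 bp) had 0.0367 FPKM in the soluble fraction and 0.54 FPKM in the pellet, with a fold of 5.63, and XLOC_026420 (993 bp) had 0.123 and 0.177 FPKM, with 2.28. Just above the limit, XLOC_023047 (1004 bp) and XLOC_048381 (1006 bp) had folds of 3.77 and 4.38.

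The short and the long loci differed in where they lay. A RefSeq start site was within 1 kb for 4 of the 148 short loci (2.70%) and for 29 of the 87 long ones (33.3%). The same held for 232 of the 370 lincRNA genes above the minimum (62.7%). These genes are annotated, so that site can be their own, and their median distance was 9 bp. Distances run from the edges of a locus, so a longer locus reaches a site more easily. The median distance to the nearest start site was 24889 bp for the short loci and 9987 bp for the long ones. The set of start sites was incomplete. It held none for chromosome 18, so the 2 short loci there counted as not within 1 kb and had no distance. XLOC_018763 lies inside Slc52a2, yet its nearest site in the set was 441194 bp away. Both the shares and the medians are therefore rough. Of the 106 short loci outside coding genes whose nearest coding gene has a known strand, 74 (69.8%) lay on its downstream side and 32 upstream. The downstream loci include 11 of a single group on chromosome 1, described further on, all assigned to Slco6d1. Loci of the same group were counted separately, although they are not independent in position. Within 10 kb of the gene, 34 were downstream and 13 upstream.

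The downstream share was 41.5% among the long loci (22 of 53), 42.7% among the lincRNA genes (88 of 206) and 39.5% among the short loci under the minimum (30 of 76). The side was compared by counts alone and its difference was not tested. Beyond 10 kb, the median folds were 4.09 downstream (40 loci) and 3.57 upstream (19 loci). The 40 include the 11 loci of the group near Slco6d1, whose own median was 4.40, and medians without them were not computed. Within 10 kb, the medians were 3.88 downstream (34 loci) and 2.71 upstream (13 loci).

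The neighbouring genes were ordinary in level. Of 109 coding genes nearest to short loci above the minimum, 95 reached it themselves, and their median soluble level was 13.6 FPKM, beside 12.9 FPKM over all 11397 coding genes that did. Their median log2 fold was 0.565 beside 0.265. In 106 pairs of a short locus and such a gene, the locus had the higher fold in 98, by a median of 3.10. Across these pairs, several of which share a gene, the folds of locus and gene had a Spearman rank correlation of 0.0058.

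Of 98 genes in the lists of the Tbx5 network, cardiac transcription factors, the sarcomere and calcium handling, 14 had a short locus within 100 kb. These were 20 loci, of which 9 reached the minimum and 19 passed 2-fold towards the pellet, whatever their level. Over all short loci at any level that share was 89.7%, so the 20 were close to the rest. The 14 genes are 14.3% of those listed, while 694 of 21900 RefSeq coding genes (3.17%) had a short locus that near. These lists were chosen around Tbx5 and the heart, so the shares are a description only. XLOC_058428 (63 bp, chr9:58867113-58867175) lies 3938 bp downstream of Hcn4, which codes for the pacemaker channel of the sinus node. It had 100.4 FPKM in the soluble fraction and 524 FPKM in the pellet, at most 8.01 and 57.9 fragments, and a log2 fold of 4.14. Hcn4 had 2.50 and 1.10 FPKM and a fold of 0.57. The locus's FPKM thus stood far above that of the gene, although at this length few fragments make that value.

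XLOC_021781 (59 bp, chr16:28154661-28154719), 3064 bp downstream of Fgf12, which codes for a modulator of cardiac sodium channels, had 51.1 and 102 FPKM, at most 4.08 and 11.2 fragments, and a fold of 2.75. Its neighbour XLOC_021780 (361 bp) had 0.071 and 0.318 FPKM, 4 soluble and about 31.7 pellet fragments, and a fold of 3.91. These 2 loci stand far apart in FPKM and close together in fragments. Fgf12 had 4.62 and 1.57 FPKM and a fold of 0.19.

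XLOC_041231 (98 bp, chr4:147993990-147994087) lies upstream of Nppa and 6785 bp from Nppb, the brain natriuretic peptide gene. It had 1.95 FPKM in the soluble fraction and 9.54 FPKM in the pellet, 1 soluble and about 9.8 pellet fragments, and a log2 fold of 4.04 (1.23 to 9.48). Nppa went the other way, with 1.63 and 0.209 FPKM and a fold of -1.21. XLOC_039435, 33939 bp from Nppa, had 1 soluble and 5 pellet fragments. Near Sln, the gene of sarcolipin, an inhibitor of the calcium pump, XLOC_056686 and XLOC_056688 had 1 soluble fragment each and about 13.0 and 14.9 pellet fragments, with folds of 4.20 and 5.22. Sln itself had 12.5 and 1.27 FPKM and a fold of -1.55.

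The best covered loci near listed genes lay by Zfpm2 and Nkx2-5. XLOC_019503 (824 bp) and XLOC_019504 (593 bp), 24242 and 23508 bp from Zfpm2, whose product binds GATA4, had 0.193 and 0.173 FPKM in the soluble fraction and 1.21 FPKM each in the pellet. These are about 41.9 and 23.5 soluble and 475 and 297 pellet fragments, with log2 folds of 4.40 (3.95 to 4.89) and 4.56 (3.96 to 5.22), which overlap. XLOC_022948 (483 bp, chr17:26904892-26905374), 59904 bp from Nkx2-5, a homeodomain factor that partners Tbx5, had about 267 and 592 fragments and a fold of 2.05 (1.84 to 2.26). Its interval lies below those of the Zfpm2 pair.

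By Atp2a2, the gene of the cardiac sarcoplasmic calcium pump, 3 short loci had values. XLOC_044208 (297 bp) and XLOC_044210 (803 bp) had log2 folds of 4.46 (3.26 to 5.96) and 4.30 (3.50 to 5.20), and XLOC_042650 (212 bp), in the lncRNA gene 1700040P09Rik, had 1.37 (-0.70 to 3.64) from 4 soluble and 6 pellet fragments. The last interval overlaps both others. XLOC_043238, 59196 bp downstream of Kcnh2, which codes for the hERG potassium channel, had a fold of 4.20, and XLOC_057559, 44434 bp from the ventricular light chain gene Myl3, one of 4.63 from 2 soluble fragments.

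Among the loci near listed genes under the minimum, XLOC_013307 and XLOC_013308, 25562 and 26998 bp upstream of Ryr2, the calcium release channel of the sarcoplasmic reticulum, had folds of 2.90 and 3.24 from 6.5 and 4 soluble fragments. XLOC_034826, 60134 bp from Gja5, the gene of the atrial gap junction protein connexin 40, was the single one of the 20 under 2-fold, at 0.95 from 3 soluble and 4 pellet fragments.

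The listed genes themselves were spread over both fractions. Of 23 genes of the Tbx5 network list above the minimum, 3 passed 2-fold towards the pellet and 4 towards the soluble fraction, around a median of 0.19 on the log2 scale, beside 31.9% and 10.5% of all loci. Of 19 cardiac transcription factor genes 9 were higher and 0 lower (median 0.88), of 25 calcium and electrical genes 8 and 3 (0.53), and of 20 sarcomere genes 5 and 4 (-0.10). Cacna1d, which codes for a pacemaker calcium channel, had 2.09, and Myl7, the atrial regulatory light chain, had -1.34. Tbx5 had 17.8 FPKM in the soluble fraction and 9.54 FPKM in the pellet (0.86). Atrial markers were present, with all 10 of 10 in the table above the minimum and 367 FPKM of Myl4 in the soluble fraction. In the soluble fraction, the marker lists of ventricular muscle, immune cells and skeletal muscle summed to 1.02, 0.896 and 0.888 FPKM, with Cd68 the highest immune marker at 0.711 FPKM. The endothelial list summed to 7.06 FPKM and the neuronal one to 22.6 FPKM, of which Map2 made 22.3 FPKM. The fibroblast list summed to 347 FPKM, mostly Col3a1 (340.5 FPKM), and the smooth muscle list to 1940 FPKM, mostly Acta2 (1539 FPKM). Whether those genes bear on the values of the short loci was not tested.

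Short loci often lay beside others of the type. Of the 262, 117 lay within 50 kb of another Tbx5-dependent locus and 145 alone. The 52 of the first kind above the minimum had a median log2 fold of 3.88 and the 96 of the second one of 3.81, so both medians lay close together. On chromosome 1, 11 short loci and no longer one followed each other over 166 kb (chr1:98609048-98775194), 92.1 kb downstream of Slco6d1, an organic anion transporter gene listed near 0 in the soluble fraction.

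All 11 reached the minimum and all were at least 2-fold higher, by 3.68 to 5.32 on the log2 scale with a median of 4.40. Their soluble FPKM ran from 0.352 (XLOC_000820, 362 bp) to 1195 (XLOC_000837, 63 bp). In fragments the order was another one, since XLOC_000808 (285 bp) had the most with about 185 soluble and 1995 pellet fragments, and XLOC_000836 (77 bp) had about 7.3 and 91.3. The 10 loci with fragment numbers summed to 578 soluble and 6330 pellet fragments. XLOC_000820 had the largest fold of the group, 5.32 (4.67 to 6.05), and XLOC_000838 the smallest, 3.68 (3.42 to 3.95).

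XLOC_000828 (71 bp) had 82.3 FPKM in the soluble fraction and 806 FPKM in the pellet, from about 8.06 and 143 fragments, with a log2 fold of 5.05. XLOC_000844 (83 bp) had 111 and 697 FPKM, from about 27.7 and 313 fragments, with 4.40. These were among the 5 highest pellet values of the short loci. A second group on the same chromosome, 6 loci over 35.5 kb near Rabgap1l, a Rab GTPase activator gene, had 3 above the minimum, all higher, at 3.22 to 4.26.

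**Figure D4:**
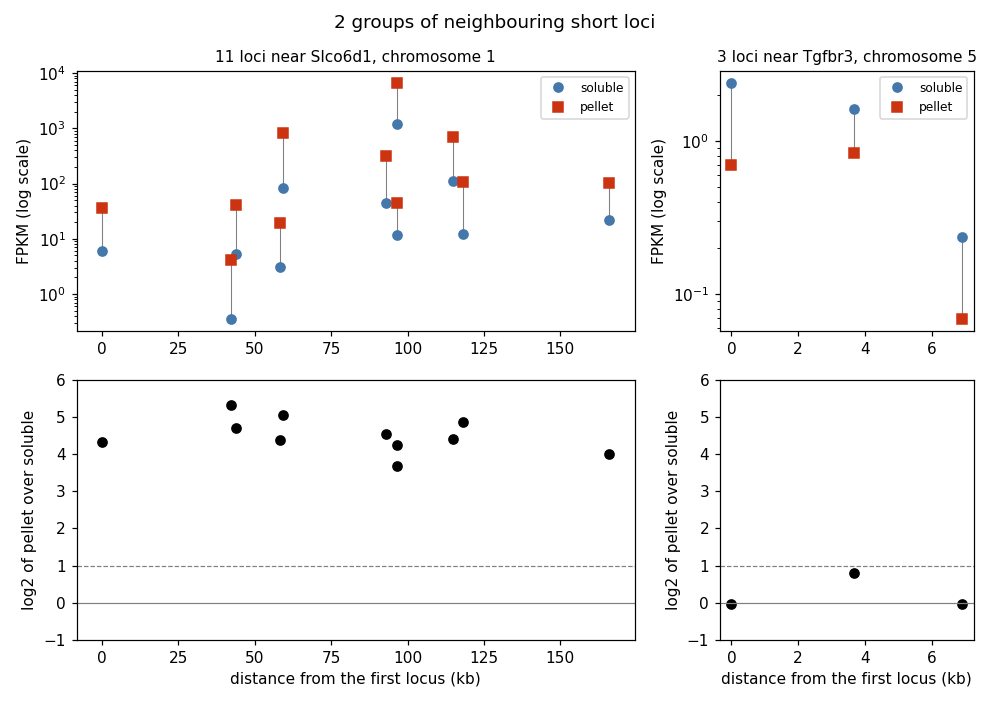
FPKM of both fractions (top, log scale, pellet before the spike-in factor) and log2 fold on the spike-in scale (bottom) against the distance in kb from the first locus, for the 11 short loci near Slco6d1 and the 3 near Tgfbr3. The 11 folds lie between 3.68 and 5.32 while the soluble levels run from 0.352 to 1195 FPKM, and the 3 folds near Tgfbr3 lie under the dashed 2-fold line.

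Among the 11 groups with at least 3 short loci, 1 had no locus at least 2-fold higher. It held 3 short loci near Tgfbr3, the gene of betaglycan, a TGF-beta co-receptor. XLOC_042411 (240 bp) had 2.40 FPKM in the soluble fraction and 0.69 FPKM in the pellet, from about 43.4 and 22.6 fragments, a log2 fold of -0.04 with a counting interval of -0.84 to 0.72. XLOC_042412 (278 bp) had 1.63 and 0.833 FPKM, from about 46.0 and 42.6 fragments, and a fold of 0.79 (0.16 to 1.42). Both intervals lie below those of all 10 loci with fragment numbers on chromosome 1. XLOC_043938 (188 bp), under the minimum, had 2 soluble fragments and 1 pellet fragment and a fold of -0.03.

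The groups near Max, a partner of Myc, and near Aebp2, a cofactor of Polycomb complex PRC2, had 3 short loci each, all above the minimum and all higher, with medians of 4.53 and 3.64. Near Ddx10, an RNA helicase gene, XLOC_056665 had 1 soluble and about 21.3 pellet fragments and a fold of 5.16. The largest fold of all 262 loci, 7.40, was that of XLOC_046839 (399 bp), 223898 bp from Chrm2, the gene of the cardiac muscarinic receptor. It had 0.0162 FPKM in the soluble fraction and 0.813 FPKM in the pellet, which is 1 soluble and about 101 pellet fragments, and its interval runs from 4.89 to 12.72.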

How the data were processed

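RNA from 3 chromatin pellet and 3 soluble nuclear libraries of HL-1 cells was measured by strand-specific sequencing after depletion of ribosomal RNA, per the labels' protocols. The submitters' processing notes name bedtools, Cuffdiff, Cufflinks, HISAT2, SAMtools and mm10, the genome build, with tool versions and settings not given in the sources used here. In their table, the authors deposited 1 FPKM value per fraction and locus, with the replicates of a fraction pooled, per the file headers. Beside it the authors deposited a rescaled pellet signal and a total signal, the ratio that results from dividing it by the soluble FPKM, and the log10 of total and ratio, per the file headers. The FPKM columns were used here; the rescaled signal served as a check and equals the pellet FPKM times 3.373, the slope of soluble on pellet FPKM over 82 spike-ins through the origin, to within 0.39 percent.

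Repeat lines of an identifier (1945 of 30687) were dropped. The fold is the log2 of rescaled pellet over soluble FPKM, with no pseudocount. Loci with a mean FPKM of at least 0.5 were counted as higher or lower at 2-fold. With 1 pooled value per fraction there is no spread between replicates, so no test was run. Library depth is not given; it was approached through the steps of low FPKM values, followed over locus lengths from 107 bp with Python 3.11.15, numpy 2.4.6, pandas 2.3.3 and scipy 1.17.1. Values over 9 fragments, or at lengths more than 5 bp from a known step, are estimates that assume equal shares of FPKM over the libraries. Some lower values are estimates too, such as the 5.63 soluble fragments of XLOC_023556 (121 bp). The method was also run on simulated data drawn from its own model. Step proportions were held fixed over length there, so that run could not test this assumption. Positions are 1-based in mm10 and were set against RefSeq genes of GRCm38.p6, the same primary assembly.

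Named loci were the 8 with the largest fold at a mean of at least 1 FPKM, every lower locus, the 5 highest in each fraction, those near listed genes within 100 kb, those next to the length limit and those on small or miscellaneous RNA genes; loci with many fragments and groups of neighbours (gaps of at most 50 kb) were added after their values were seen. The loci, gene lists and alternatives were chosen with earlier results of these data known.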

Additional observations from a re-analysis of the deposited data

How the results depend on the processing

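With 1 pooled value per fraction, leaving out a replicate could not be run. No paired analysis was possible because the table gives 1 value per fraction and no column per replicate. Loci within 50 kb of another and a minimum of 10 soluble fragments were alternatives chosen after seeing the data. The count of higher loci was 133 of 148. It was 235 of 262 with no minimum level, 49 of 54 at a mean of at least 5 FPKM, 40 of 45 without spans under 200 bp, 27 of 34 at 10 soluble fragments or more, and 85 of 96 without loci near another, each with fewer or more loci tested. The count of lower loci, 3, became 14 without the spike-in factor, 1 at 5 FPKM, 1 at a 4-fold threshold and 0 without loci that overlap a gene. The median log2 fold of 3.87 became 2.12 without the spike-in factor, 3.58 with no minimum and 3.51 at 10 soluble fragments or more. The difference from the long loci, -0.397, became -0.127 with a pseudocount of 0.1 FPKM and -0.289 without loci that overlap a gene. It became -0.761 at 10 soluble fragments or more, a filter set on the short loci alone. For these the cause was not tested. Comparison windows beside the loci were not run. Fragment numbers limit the single folds, with 72 of 137 loci at 3 soluble fragments or fewer.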
